A study of Mus musculus with 10 samples.

Results

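A set of 10 growth genes that are subject to genomic imprinting in the mouse was followed through the reprogramming of mouse embryonic fibroblasts (MEFs) with and without FoxO6. The 10 genes were H19, Igf2, Cdkn1c, Meg3, Rian, Dlk1, Peg3, Mest, Plagl1 and Grb10, and they were picked out by name from the 48476 genes of the count table of the series. The choice was made with earlier results of these data known. Counts of members set beside shares of all genes below are therefore a description and not independent evidence of an excess. All 10 were found once in that table, and all 10 passed the count filter that left 10977 genes for testing. The MEFs came from whole embryos at E13.5 of the cross CBA/CaJ X C57BL/6J, and the study's methods describe MEFs with an Oct4-GFP reporter. They received Oct4, Klf4 and Sox2 (OKS) from retroviruses produced in PlatE cells, together with the red fluorescent protein DsRed as the control (OKS+DR) or with the forkhead transcription factor FoxO6 (OKS+FoxO6), and were then kept in iCD1 medium. RNA was sequenced at days 0, 1, 3, 5 and 7 in each arm. There was 1 library per arm and day, hence 10 libraries in all, and a difference between the arms on a single day has no replicate check. The parental alleles were not told apart, so the values below are levels of each gene and not a measure of its imprint.

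An imprinted gene is transcribed mainly from the copy inherited from one parent, according to DNA methylation set in the egg or the sperm. Paternally expressed genes such as Igf2, Dlk1, Peg3, Mest and Plagl1 are mostly linked to more growth of the embryo, and maternally expressed genes such as H19, Cdkn1c and Grb10 mostly restrain it. H19 and Igf2 are neighbours that share enhancers and one control region, and Meg3, Rian and Dlk1 lie together in the Dlk1-Dio3 domain, where the noncoding RNAs come from the maternal copy and Dlk1 from the paternal copy. Low Meg3 and Rian have been used as a marker of mouse induced pluripotent stem cells of poor developmental potential.

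On GRCm38, in the GENCODE M21 annotation, H19 (ENSMUSG00000000031) is a lincRNA at chr7:142575529-142578143 on the minus strand, and Igf2 (ENSMUSG00000048583), a protein-coding gene, is at chr7:142650766-142666816 on the minus strand. Their start sites are 88.67 kb apart. Cdkn1c (ENSMUSG00000037664) is 794.2 kb from the start of Igf2, at chr7:143458339-143461050 on the minus strand. On the plus strand of chromosome 12, Dlk1 (ENSMUSG00000040856) is at chr12:109452823-109463336, Meg3 (ENSMUSG00000021268) at chr12:109541001-109571726 and Rian (ENSMUSG00000097451) at chr12:109603940-109661716. The start of Meg3 is 88.18 kb from that of Dlk1 and 62.94 kb from that of Rian. Peg3 (ENSMUSG00000002265) is at chr7:6703892-6730431 on the minus strand, Mest (ENSMUSG00000051855) at chr6:30723547-30748465 on the plus strand, Plagl1 (ENSMUSG00000019817) at chr10:13060504-13131694 on the plus strand and Grb10 (ENSMUSG00000020176) at chr11:11930508-12038683 on the minus strand.

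The 250 bases before the start sites of Dlk1 and Meg3 are shown because these neighbours behaved differently between the arms. Both are RefSeq sequences on GRCm38.p6, 5′ to 3′ on the plus strand, at chr12:109452573-109452822 for Dlk1 and chr12:109540746-109540995 for Meg3. Capitals mark the forkhead core TGTTTAC, the ZFP57 hexamer TGCCGC and the cyclic AMP response element TGACGTCA, each searched on both strands and without overlap in these windows.
Dlk1: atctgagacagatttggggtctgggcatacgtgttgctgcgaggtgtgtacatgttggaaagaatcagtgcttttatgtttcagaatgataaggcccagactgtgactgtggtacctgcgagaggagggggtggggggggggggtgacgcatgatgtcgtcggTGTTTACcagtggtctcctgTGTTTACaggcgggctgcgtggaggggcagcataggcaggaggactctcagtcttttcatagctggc
Meg3: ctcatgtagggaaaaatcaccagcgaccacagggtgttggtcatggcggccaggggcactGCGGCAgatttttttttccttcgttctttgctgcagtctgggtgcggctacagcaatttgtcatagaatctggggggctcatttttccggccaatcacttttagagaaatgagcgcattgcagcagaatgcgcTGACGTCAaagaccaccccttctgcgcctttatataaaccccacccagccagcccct
The Dlk1 window held 2 copies of the forkhead core, starting 87 and 67 bases before the start site. The Meg3 window held no copy of it, but it held the ZFP57 hexamer, on the other strand, starting 190 bases before the start and the cyclic AMP element starting 57 bases before it. Of the 32851 windows of this length in the table, 3.17% held the forkhead core, 8.68% the ZFP57 hexamer and 1.55% the cyclic AMP element. The motifs were chosen with the sequences in view, and a match is a description of letters only. Of the 10 genes, 8 had an entry, with 15 windows in all, and the forkhead core was in the window of Dlk1 alone, the hexamer in windows of Meg3, Mest and Plagl1 and the cyclic AMP element in windows of Meg3 and Peg3.

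Both H19 and Meg3 also carry microRNAs in annotated exons, which are shown because the host genes were measured here. An exon of any annotated transcript of the gene was taken, and whether the RNA counted here gives rise to these microRNAs was not tested. The mature sequences are from RefSeq, 5′ to 3′, with the seed (bases 2 to 8) in capitals.
miR-675-5p of H19: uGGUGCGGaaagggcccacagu
miR-675-3p of H19: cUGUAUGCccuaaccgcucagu
miR-1906 of Meg3: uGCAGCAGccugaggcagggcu
miR-770-5p of Meg3: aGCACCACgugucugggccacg
miR-770-3p of Meg3: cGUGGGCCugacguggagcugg
No seed is shared among the 5. These libraries do not measure mature microRNAs, and the rows of the precursors Mir675, Mir1906-1 and Mir770 held 0 counts in every library.

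Each library held 1208379 to 2225750 expected counts, the median being 1601151. Levels are given as TPM, the transcript abundance per length scaled to the same total in every library, with exact Poisson 95% intervals on the underlying reads where an interval is shown. Ratios between libraries carry exact binomial 95% intervals, and all of these intervals cover counting error only. Foxo6 itself was at 0.61 to 2.29 TPM in OKS+DR, from at most 4 reads, and at 762.11 to 1356 TPM in OKS+FoxO6, already at 1017 TPM at day 0, so day 0 was not a state before FoxO6 was expressed. All 10 fibroblast markers were detected at 1 TPM or more in every library. Between the TPM and the CPM (counts per library total, TMM-scaled) scales, the median difference of all genes between the arms at day 7 moved by -0.134 on the log2 scale, and it moved by at most 0.0648 on the other days.

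H19 and Igf2 were higher in OKS+FoxO6 than in OKS+DR on all 5 days, and both were lower at day 7 than at day 0 in both arms. H19 is a noncoding RNA that restrains growth. Its level in OKS+DR on days 0, 1, 3, 5 and 7 was 461, 80.5, 77.7, 100.1 and 61.8 TPM. In OKS+FoxO6 it was 656, 169, 149.7, 191 and 207 TPM on the same days. From day 1 on, the highest OKS+DR library stayed below the lowest OKS+FoxO6 library. The ratio of OKS+FoxO6 to OKS+DR was 1.42 (1.29 to 1.57) at day 0, 2.10 (1.69 to 2.63) at day 1 and 3.35 (2.72 to 4.17) at day 7. Most of the fall of H19 came between days 0 and 1, when it dropped 5.73-fold (4.69 to 7.05) in OKS+DR and 3.87-fold (3.40 to 4.43) in OKS+FoxO6. In bulk RNA, fewer cells with a gene on and less of its RNA per cell cannot be told apart.

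Igf2 encodes insulin-like growth factor 2, a growth factor of the embryo. In OKS+DR it went from 1172 TPM through 496, 79.5 and 33.5 to 11.4 TPM over the same days, with 1841 reads in the first and 32 in the last of these libraries. In OKS+FoxO6 it measured 1439, 644, 171, 83.2 and 71.1 TPM, from 4214 reads at day 0 to 142 at day 7. Igf2 was thus the most abundant of the 10 genes at day 0 in both arms and above only Cdkn1c and Dlk1 in OKS+DR at day 7, and each library was below the one before it in both arms. The arms lay close together at the start, with a ratio of 1.23 (1.16 to 1.30) at day 0 and 1.30 (1.19 to 1.41) at day 1. They then parted, with ratios of 2.15 (1.80 to 2.58) at day 3, 2.48 (1.89 to 3.31) at day 5 and 6.23 (4.22 to 9.46) at day 7. The effective length assigned to Igf2 ranged from 2230 bases (OKS+FoxO6, day 7) to 3508 bases (OKS+FoxO6, day 5), so its TPM depends on which transcripts were called. Between these days Igf2 in OKS+FoxO6 went from 83.2 to 71.1 TPM but from 144 to 91.1 counts when divided by library total and scaled as CPM. The log2 difference between the arms at day 5 was likewise 1.61 on the CPM scale against 1.29 in log2(TPM + 1).

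**Figure D1:**
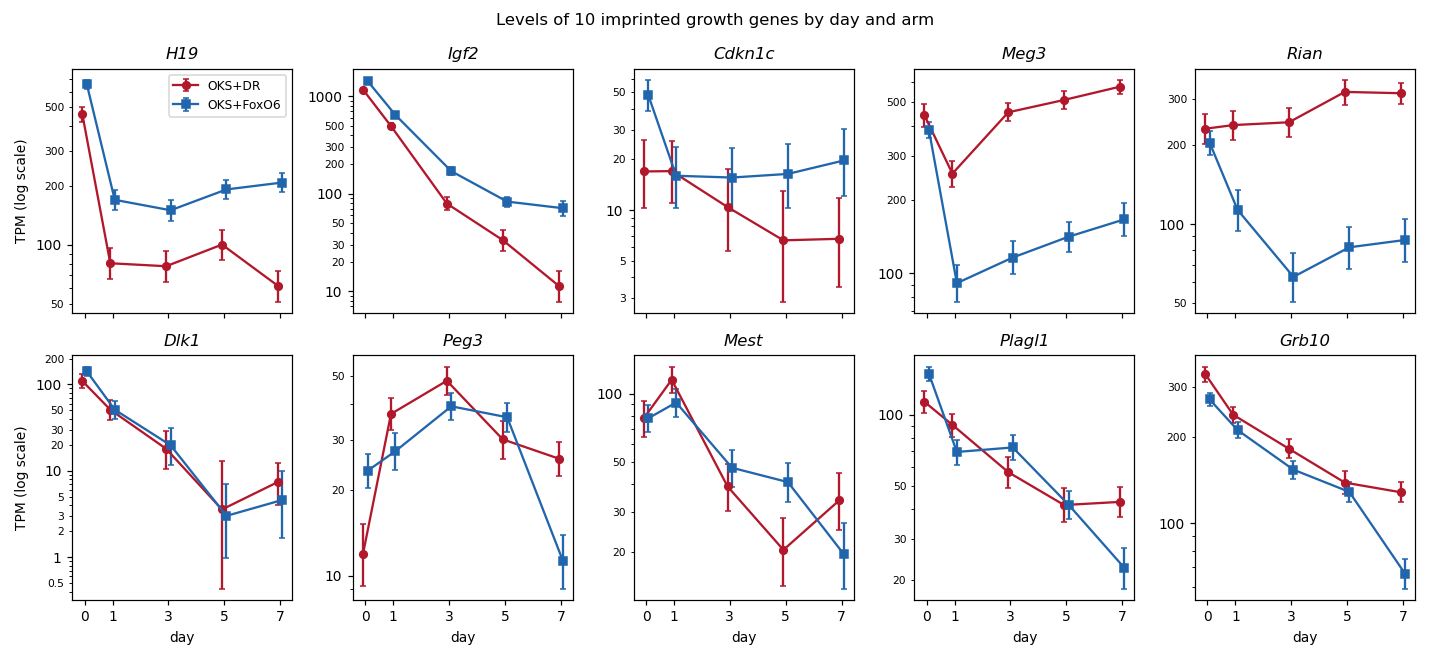
Level of each of the 10 genes in TPM (log axis, a different range in each panel) against day, with red circles for OKS+DR and blue squares for OKS+FoxO6. Each point is 1 library and bars are exact Poisson 95% intervals on its reads. Igf2 ends at 11.4 TPM in OKS+DR and 71.1 TPM in OKS+FoxO6, whereas Meg3 ends at 577 and 166 TPM.

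Meg3 and Rian, the maternally expressed noncoding RNAs of the Dlk1-Dio3 domain, went the other way: they ended above their day 0 level in OKS+DR and were lower in OKS+FoxO6 after day 0. Meg3 was at 441 TPM at day 0 in OKS+DR and at 255, 454, 509 and 577 TPM at days 1, 3, 5 and 7. In OKS+FoxO6 it was at 384 TPM at day 0 and at 91.3, 116, 141 and 166 TPM on the later days. The arms did not overlap from day 1 on. The ratio of OKS+DR to OKS+FoxO6 was 1.15 (1.01 to 1.31) at day 0 and 2.80 (2.27 to 3.45) at day 1. On days 3, 5 and 7 it was 3.91 (3.28 to 4.67), 3.61 (3.07 to 4.26) and 3.47 (2.95 to 4.11). The small difference at day 0 depends on the scale, at -0.20 in log2(TPM + 1) and 0.02 in log2 CPM. The effective length assigned to Meg3 ranged from 1170 to 1825 bases, both in OKS+FoxO6, so its TPM also depends on which transcripts were called. In log2 CPM the differences on days 3, 5 and 7 were -2.09, -1.89 and -2.09. Both arms lost Meg3 between days 0 and 1, by 1.73-fold (1.48 to 2.03) in OKS+DR and by 4.21-fold (3.49 to 5.10) in OKS+FoxO6, and both then regained part or all of it.

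Rian hosts small nucleolar RNAs and microRNAs. It measured 230.3, 238, 244, 318 and 314 TPM at days 0, 1, 3, 5 and 7 in OKS+DR, against 204, 113, 63.0, 81.6 and 87.0 TPM in OKS+FoxO6. No OKS+FoxO6 library reached the lowest OKS+DR library. The ratio of OKS+DR to OKS+FoxO6 grew from 1.13 (0.951 to 1.34) at day 0, within counting error, to 2.10 (1.69 to 2.63) at day 1 and 3.87 (3.03 to 4.98) at day 3, and was 3.61 (2.94 to 4.46) at day 7. Mirg, another noncoding RNA further along the domain, was at 21.4, 7.67, 24.6, 10.2 and 39.0 TPM in OKS+DR and at 5.46, 1.93, 3.25, 3.75 and 12.8 TPM in OKS+FoxO6. These values rest on 1 to 29 reads, too few for the count filter, and the ratio of OKS+DR to OKS+FoxO6 was 7.57 (2.14 to 40.8) at day 3 and 3.05 (1.31 to 8.24) at day 7.

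Dlk1, the paternally expressed gene at the other end of this group and a membrane ligand related to the Notch ligands, did not separate the arms. Its levels were 109.7, 51.1, 18.0, 3.57 and 7.42 TPM in OKS+DR and 141.8, 51.1, 19.8, 3.01 and 4.6 TPM in OKS+FoxO6. The ranges of the arms overlapped almost entirely. It dropped 14.8-fold (8.45 to 27.9) from day 0 to day 7 in OKS+DR and 30.8-fold (13.95 to 84.9) in OKS+FoxO6, and these intervals overlap. At day 5 its values rest on 2 and 5 reads.

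Cdkn1c, a maternally expressed inhibitor of cyclin-dependent kinases, was a weakly expressed gene with 8 to 88 reads per library. It was at 17.0, 17.0, 10.4, 6.61 and 6.75 TPM in OKS+DR and at 48.3, 16.0, 15.6, 16.4 and 19.7 TPM in OKS+FoxO6. Every OKS+FoxO6 library except day 1 was above the OKS+DR library of its day, by 2.85-fold (1.74 to 4.89) at day 0 and 2.92-fold (1.37 to 6.50) at day 7. On the CPM scale the differences at days 5 and 7 were 0.76 and 0.94 in log2 units, under 2-fold. Grb10, an adaptor protein that dampens signalling of the insulin and IGF receptors, had 287 to 1484 reads per library and was the best counted of the remaining genes. It declined at every step, from 332 to 239, 182, 139 and 128 TPM in OKS+DR and from 271 to 212, 154, 129 and 66.5 TPM in OKS+FoxO6. The OKS+FoxO6 library was the lower one on each day, by 1.08-fold (0.953 to 1.22) to 1.23-fold (1.13 to 1.33) up to day 5 and by 1.93-fold (1.67 to 2.23) at day 7.

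Peg3, Mest and Plagl1 are paternally expressed. Plagl1, a zinc finger transcription factor, was at 113, 90.6, 57.2, 41.6 and 42.9 TPM in OKS+DR and at 149, 69.6, 72.8, 41.7 and 22.6 TPM in OKS+FoxO6. Mest, an enzyme of the alpha/beta hydrolase family, was at 78.1, 116, 39.0, 20.5 and 33.9 TPM in OKS+DR and at 78.1, 91.7, 47.2, 40.8 and 19.6 TPM in OKS+FoxO6. Which arm was higher changed from day to day for both genes. Peg3, a zinc finger protein, was at 11.96, 36.9, 48.2, 30.1 and 25.7 TPM in OKS+DR and at 23.3, 27.3, 39.2, 35.9 and 11.3 TPM in OKS+FoxO6. It was the only one of the 10 genes with its peak at day 3 in both arms, and at day 7 it was 2.29-fold (1.77 to 2.97) higher in OKS+DR. That last difference was -0.98 in log2 CPM, just under 2-fold. The 3' end of Mest overlaps Copg2 on the other strand, which held 57.62 to 109.85 counts per library, and the strand setting of the counting was not given in the sources used here, so reads of the overlap may be split between them.

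Taking each day by itself, a difference in log2(TPM + 1) of more than 1 in either direction was counted as past 2-fold. The number of the 10 genes past it was 1, 3, 3, 4 and 6 on days 0, 1, 3, 5 and 7. Among the 10977 tested genes the share was 10.2%, 10.1%, 11.9%, 13.5% and 17.5% on these days. At day 7, H19, Igf2 and Cdkn1c were more than 2-fold higher in OKS+FoxO6, where 5.81% of all genes were, and Meg3, Rian and Peg3 more than 2-fold lower, where 11.7% were. On the CPM scale, Cdkn1c (0.94) and Peg3 (-0.98) were under 2-fold at day 7, as was Cdkn1c at day 5 (0.76), which leaves 4 genes at day 7 and 3 at day 5. The shares of all genes given here are on the log2(TPM + 1) scale and are no background for these CPM counts. The gene past 2-fold at day 0 was Cdkn1c, and the 4 at day 5 were Igf2, Cdkn1c, Meg3 and Rian. H19 and Igf2 were higher in OKS+FoxO6 on all 5 days, as were 12.1% of all genes. Meg3, Rian and Grb10 were lower on all 5 days, as were 9.71%, although at day 0 Meg3 was not lower on the CPM scale.

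**Figure D2:**
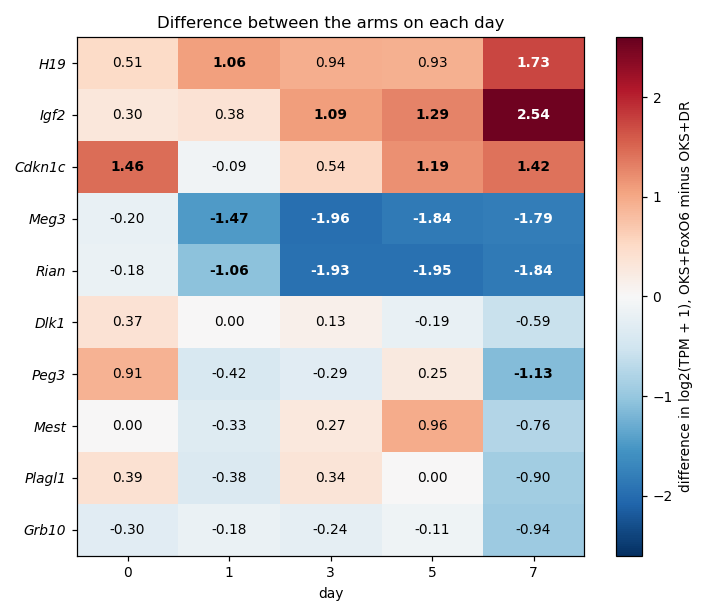
Difference in log2(TPM + 1), OKS+FoxO6 minus OKS+DR, for each of the 10 genes (rows) on each day (columns), with red for higher and blue for lower in OKS+FoxO6 and bold print for differences past 2-fold. Each cell compares 1 library with 1 library. Igf2 runs from 0.30 at day 0 to 2.54 at day 7, and Meg3 and Rian lie between -1.06 and -1.96 from day 1 on.

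A shift between the arms shared by the 5 days was then tested with edgeR's quasi-likelihood test on the rounded expected counts, which took day as a factor, and p was adjusted by Benjamini-Hochberg over all 10977 genes. The 5 libraries of an arm may come from one culture, so the p-values describe these 2 time courses. H19 and Igf2 were higher in OKS+FoxO6 and Meg3 and Rian were lower, while the other 6 genes did not pass the adjusted threshold of 0.05. Of all tested genes, 6.93% were called higher and 7.13% lower, 14.1% in all. The log2 fold change of H19 was 0.93 (SE 0.18, edgeR adjusted p = 0.00603) and that of Igf2 was 1.04 (SE 0.25, edgeR adjusted p = 0.0185). The call on Igf2 was lost without day 3 (edgeR adjusted p = 0.0671) and without day 5 (0.081), which leaves H19 as the 1 member called higher in those fits. Meg3 had a log2 fold change of -1.48 (SE 0.27, edgeR adjusted p = 0.00494) and Rian one of -1.45 (SE 0.23, edgeR adjusted p = 0.00228). H19, Meg3 and Rian remained past the threshold with each day left out in turn. In the fit without day as a factor none of the 4 passed, with edgeR adjusted p of 0.662 for H19, 0.903 for Igf2, 0.117 for Meg3 and 0.0606 for Rian, and the shift of Igf2 was 0.44.

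Of the 6 genes that did not pass, Cdkn1c came out at 0.65 (SE 0.27, edgeR adjusted p = 0.139) and Grb10 at -0.39 (SE 0.12, edgeR adjusted p = 0.0603). The other 4, Dlk1, Peg3, Mest and Plagl1, had log2 fold changes between -0.18 and 0.08, each smaller than its SE. The median over the 10 genes was -0.10, beside -0.0168 over all genes tested. Among the 5 paternally expressed genes Igf2 alone passed, and among the 5 maternally expressed ones H19 passed upward and Meg3 and Rian downward.

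**Figure D3:**
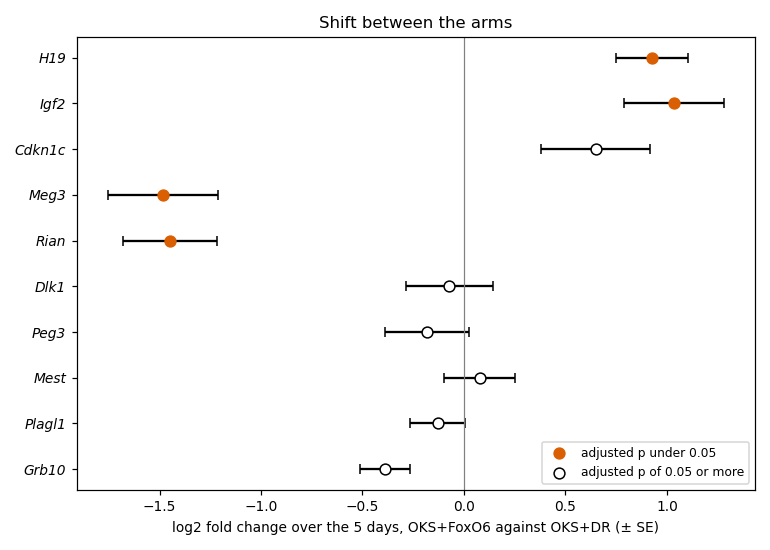
Log2 fold change over the 5 days, OKS+FoxO6 against OKS+DR, from edgeR with day as a factor, for the 10 genes, with the standard error as bars. Filled points have an adjusted p under 0.05. H19 (0.93) and Igf2 (1.04) lie to the right of 0, and Meg3 (-1.48) and Rian (-1.45) to the left.

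Over the days, 7 of the 10 genes changed in the same model, where 19.6% of all genes did. All 7 were lower at day 7 than at day 0, which held for 9.57% of all genes, and the median day 7 to day 0 log2 fold change was -1.85 for the 10 genes and 0.0284 for all genes. Igf2 fell by 5.32 (SE 0.45, edgeR adjusted p = 2.29e-05) and Dlk1 by 4.12 (SE 0.34, edgeR adjusted p = 8.51e-06) on the log2 scale. The falls of H19, Plagl1, Mest, Grb10 and Cdkn1c were between 1.55 and 2.15. Meg3 (-0.52, edgeR adjusted p = 0.147), Rian (-0.44, edgeR adjusted p = 0.212) and Peg3 (0.04, edgeR adjusted p = 0.0856) did not pass, and the Peg3 term, which tests all days, passed without day 7 (edgeR adjusted p = 0.0343). The change of H19 lay in the step from day 0, since its day term was not past the threshold without day 0 (edgeR adjusted p = 0.895). Cdkn1c also lost its call without day 0 (edgeR adjusted p = 0.524) and without day 5 (edgeR adjusted p = 0.0623).

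Within OKS+DR, 7 of the 10 genes ended more than 2-fold below day 0, as did 9.29% of all genes, and Peg3 ended 2.15-fold (1.62 to 2.89) above it, as did 15.7%, although its rise was 0.98 in log2 CPM. Within OKS+FoxO6, 9 of the 10 ended more than 2-fold below day 0, where 14.8% of all genes did, and none ended as far above it, where 9.92% did. Peg3, at 2.07-fold (1.61 to 2.69) below, was the tenth and missed the limit by a little on the log2(TPM + 1) scale. Igf2 fell 102.7-fold (72.5 to 150.6) in OKS+DR and 20.2-fold (17.1 to 24.1) in OKS+FoxO6. H19 fell 7.46-fold (6.12 to 9.17) and 3.16-fold (2.80 to 3.58). Meg3, by contrast, rose 1.31-fold (1.16 to 1.48) in OKS+DR and fell 2.31-fold (1.95 to 2.75) in OKS+FoxO6, and Rian rose 1.36-fold (1.16 to 1.61) and fell 2.34-fold (1.89 to 2.92). Together the 10 genes took 0.391% of the counts at day 0 and 0.139% at day 7 in OKS+DR, and 0.429% and 0.0841% in OKS+FoxO6.

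The fibroblast markers moved with this decline. Their summed level fell from 9042 TPM at day 0 to 2967 at day 7 in OKS+DR and from 8595 to 3168 TPM in OKS+FoxO6, and 9 of the 10 fell in the edgeR model, with a median of -2.43. Between the arms, Pdgfra and Postn were higher and Col3a1 lower in OKS+FoxO6, and 7 of the 10 did not pass. The 7 markers of pluripotent cells summed to 313 TPM in OKS+DR and 52.0 TPM in OKS+FoxO6 at day 7, with none of them above the count filter and with Utf1 and Tdgf1 at 0 up to day 5 in both arms. The 5 epithelial markers summed to 639 and 138 TPM at day 7, and all 3 that could be tested were lower in OKS+FoxO6. The 5 macrophage markers summed to 8.96 to 54.9 TPM in OKS+DR and 20.6 to 27.3 in OKS+FoxO6, with Adgre1, Csf1r or both at 0 in each library but OKS+FoxO6 at day 0. The 5 skeletal muscle markers summed to at most 22.4 and 19.3 TPM, with Myog and Myf5 at 0 in every library. The 5 endothelial markers reached 53.0 TPM in OKS+DR and 104.2 TPM in OKS+FoxO6, of which Tek, higher in OKS+FoxO6, made up to 47.3 and 103.7 TPM. The 5 neural markers reached 147 and 98.5 TPM, with Nes lower in OKS+FoxO6. The part of these cell type differences in the levels of the 10 genes was not tested.

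Whether the gap between the arms widened over time was tested as a trend, the change of the log2 difference per day. Igf2 was the only one of the 10 genes past the threshold, with the difference growing by 0.30 log2 units per day (SE 0.040, edgeR adjusted p = 0.00313). Of all genes, 1.98% passed and 1.21% did so upward. The Igf2 trend passed with each day left out, with edgeR adjusted p up to 0.0416. One of the 10 fibroblast markers, the collagen gene Col1a2, had a larger trend in the same direction (0.36, SE 0.043, edgeR adjusted p = 0.00212), which passed with each day left out as well, and its part in that of Igf2 was not tested. Meg3 had a trend of -0.26 (SE 0.062, edgeR adjusted p = 0.0553) and Rian one of -0.20 (SE 0.058, edgeR adjusted p = 0.0905). Both passed without day 7 (-0.37, edgeR adjusted p = 0.046, and -0.35, edgeR adjusted p = 0.0273), and Meg3 also without day 3 (edgeR adjusted p = 0.0272). Without day 0, the day on which the arms were close, the trends were -0.13 and -0.10. H19, with 0.14 (SE 0.048, edgeR adjusted p = 0.140), did not pass.

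Ratios between genes in the same library do not depend on the scaling between libraries. Meg3 stood to Rian as 1.92, 1.07, 1.86, 1.60 and 1.84 at days 0, 1, 3, 5 and 7 in OKS+DR and as 1.88, 0.806, 1.84, 1.73 and 1.91 in OKS+FoxO6. In TPM, the pair thus kept close to one proportion in both arms apart from day 1, when Meg3 dropped relative to Rian in both. These ratios still depend on the effective lengths, which ranged from 1170 to 1825 bases for Meg3. By counts the proportion was less even, with 546 for Meg3 and 245 for Rian at day 3 in OKS+DR. At day 7 in OKS+FoxO6 the counts were 174 and 116. Igf2 exceeded H19 2.54-fold and 6.16-fold at days 0 and 1 in OKS+DR and 2.20-fold and 3.80-fold in OKS+FoxO6, was about level with it at day 3, and stood at 0.185 of it in OKS+DR and 0.343 of it in OKS+FoxO6 at day 7. Meg3 over Dlk1 went from 4.02 to 77.7 in OKS+DR and from 2.71 to 36.1 in OKS+FoxO6, and was lower in OKS+FoxO6 on each day. Across chromosomes, Meg3 over H19 went from 0.957 to 9.34 in OKS+DR but stayed between 0.539 and 0.801 in OKS+FoxO6. These ratios were not tested.

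**Figure D4:**
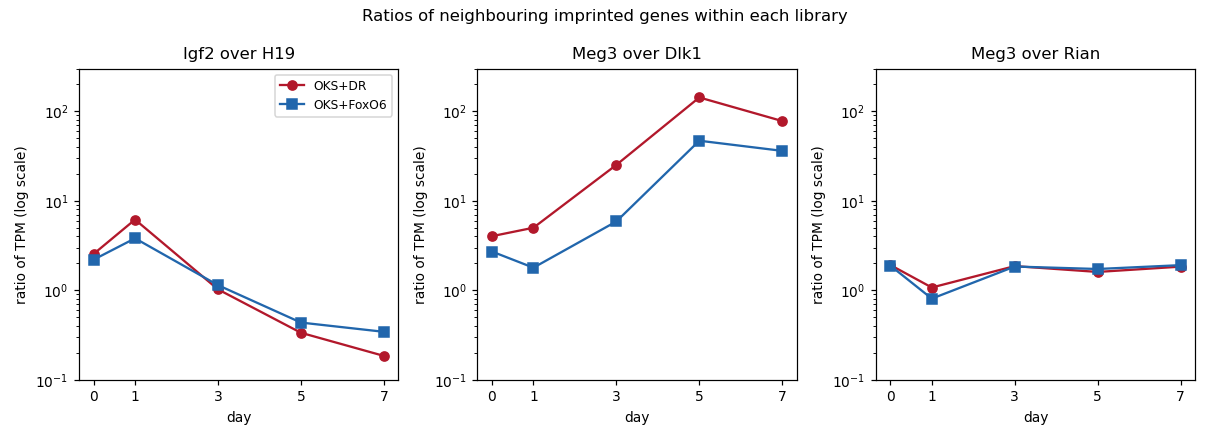
Ratio of the TPM of neighbouring genes within each library (log axis, the same in each panel) against day, with red circles for OKS+DR and blue squares for OKS+FoxO6. Igf2 over H19 falls from 2.54 to 0.185 in OKS+DR and from 2.20 to 0.343 in OKS+FoxO6, while Meg3 over Rian is between 0.806 and 1.92 in all 10 libraries.

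Along distal chromosome 7, 11 further genes of the domain that runs from Ins2 past Kcnq1 to Osbpl5 were listed and 6 were tested. Tnfrsf23, a decoy receptor of the TNF receptor family near the far end, was higher in OKS+FoxO6, with a log2 fold change of 1.97 (SE 0.17, edgeR adjusted p = 7.57e-05), and none of the other 5 passed. It ranged from 8.56 to 41.8 TPM in OKS+DR and from 41.6 to 179.8 TPM in OKS+FoxO6. On distal chromosome 12, 2 of the 4 further genes found in the files were tested. Rtl1, a retrotransposon-derived gene on the strand opposite to Meg3, came out higher in OKS+FoxO6 (log2 fold change 2.22, SE 0.52, edgeR adjusted p = 0.0166). It measured 0, 2.10, 3.05, 0.70 and 0.16 TPM in OKS+DR and 6.05, 15.5, 4.73, 4.08 and 0.18 TPM in OKS+FoxO6, from 0 to 80 reads. Its call was lost without day 1 or day 5, and without strand its reads cannot be told apart from those of the maternal transcript on the opposite strand. Begain, the other one, did not pass (0.77, edgeR adjusted p = 0.0632).

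**Figure D5:**
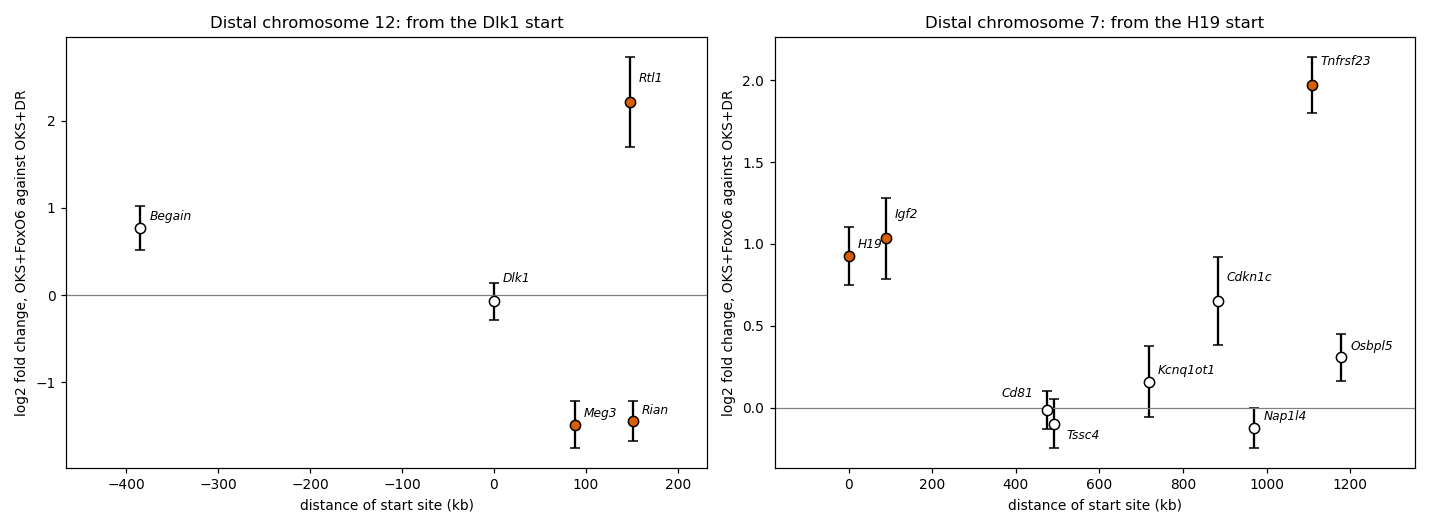
Log2 fold change over the 5 days, OKS+FoxO6 against OKS+DR, with standard errors, for the tested genes of the distal chromosome 12 domain (left) and the distal chromosome 7 domain (right), against the distance of their start sites from that of Dlk1 or H19 in kb. Filled points have an adjusted p under 0.05. Meg3 (-1.48) and Rian (-1.45) lie below 0 and Rtl1 (2.22) above it on the left, and H19, Igf2 and Tnfrsf23 (1.97) lie above 0 on the right.

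Counting these domains and the rest of the genome together, 60 other imprinted genes were listed, 58 were in the files and 35 were tested. Whether each of them is imprinted in these fibroblasts was not measured. Of these, 7 were higher in OKS+FoxO6, 3 were lower, beside 6.93% and 7.13% of all genes tested. Their median log2 fold change was 0.207, beside -0.0168 for all. Besides Tnfrsf23 and Rtl1, the higher ones were Dcn, an extracellular matrix proteoglycan (1.15, edgeR adjusted p = 0.00831), Pon2 (0.80), Cobl, an actin nucleator (0.74), Snrpn, a splicing factor subunit (0.74), and Impact (0.57). The lower ones were Peg10, a retrotransposon-derived gene (-1.36), Atp10a (-0.64) and Nnat (-0.51). With a day left out, Snrpn lost its call without day 3 or day 5 (edgeR adjusted p up to 0.134), Impact without day 3 (0.0696), Peg10 (up to 0.194) and Nnat (up to 0.228) in each fit but that without day 0, and Atp10a (up to 0.192) in each but that without day 7. Pon2, Cobl, Dcn and Tnfrsf23 kept theirs in all 5 fits. With DESeq2, all 3 lower calls were lost (DESeq2 adjusted p of 0.131 for Peg10, 0.083 for Atp10a and 0.121 for Nnat).

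Of 17 genes that set, keep or remove imprints, 12 were tested. Of these, none was higher and 4 were lower in OKS+FoxO6, beside 6.93% and 7.13% of all genes, with a median of -0.38. Zfp57, the zinc finger protein that binds methylated imprinted control regions, was at 91.6 to 195 TPM in OKS+DR and 55.3 to 108.7 TPM in OKS+FoxO6 (log2 fold change -0.99, SE 0.15, edgeR adjusted p = 0.0016). Uhrf1, which guides maintenance methylation to newly made DNA, was at 90.9 to 135 TPM and at 50.8 to 72.5 TPM, without overlap (-0.79, SE 0.15, edgeR adjusted p = 0.00552). Dnmt3a, a de novo DNA methyltransferase, came out at -0.66 (edgeR adjusted p = 0.0327) and Setdb1, a histone methyltransferase outside the naming rule and named after its value was seen, at -0.54 (edgeR adjusted p = 0.0392). The calls on Dnmt3a and Setdb1 were lost without day 3, day 5 or day 7, and that on Setdb1 also without day 1 and with DESeq2 (DESeq2 adjusted p = 0.0557). DNA methylation was not measured in these libraries.

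The genes through which Igf2 acts were measured as well. Of 16 genes of the IGF axis, 15 were tested, 5 were higher and 2 were lower in OKS+FoxO6, beside 6.93% and 7.13% of all genes, with a median of 0.251. Igf1r, the receptor that carries the IGF signal, was at 17.9 to 41.9 TPM in OKS+DR and 40.9 to 76.7 TPM in OKS+FoxO6 (1.14, SE 0.12, edgeR adjusted p = 0.000222). Irs1, the docking protein below it, came out at 0.68 (edgeR adjusted p = 0.013) and Insr, the insulin receptor, at 0.59 (edgeR adjusted p = 0.0304). Both calls were lost without day 3 or day 5, and that on Insr also without day 0 or day 1. Igf2bp3 (0.54) and Igfbp4 (0.53) were the remaining higher ones, named after their values were seen, and Igf2bp3 lost its call in each fit with a day left out but that without day 7, Igfbp4 in each but that without day 0. Igfbp3, which binds IGFs outside the cell, was lower (-1.57, SE 0.20, edgeR adjusted p = 0.000662), as was Igfbp2 (-2.20, SE 0.63, edgeR adjusted p = 0.0407), whose call was lost without day 3, day 5 or day 7. With a day left out, the shift of Igfbp2 ranged from -3.04 to -1.37. With DESeq2, Insr (DESeq2 adjusted p = 0.0628), Igf2bp3 (0.141), Igfbp4 (0.118) and Igfbp2 (0.107) lost their calls, which leaves 2 higher and 1 lower of the 7 called. Igf2r, which takes up IGF2 for breakdown, did not pass (edgeR adjusted p = 0.314).

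The genes whose pattern was most like each member were found by Pearson's r of log2(TPM + 1) over the 10 libraries, among 11422 genes with a mean of at least 5 TPM. The 10 points share 2 time courses, so these values only describe likeness. H19 was most like Pgd (r = 0.976) and Igf2 most like Tm4sf1 (0.986), Timp1 (0.985) and Itga5 (0.982), and for Igf2 the same 3 genes led on the CPM scale. Meg3 was most like Wdr76 (0.981). Rian was most like Fam84b (0.967) and Gas6 (0.962), Dlk1 like Kctd11 (0.985), Plagl1 like Arl5a (0.987), Grb10 like Hs6st2 (0.982), Peg3 like 5830417I10Rik (0.968), Mest like Lrrn3 (0.965) and Cdkn1c like Dlgap4 (0.952). For Meg3, Mest, Plagl1 and Cdkn1c, none of the nearest 3 genes was among the nearest 3 on the CPM scale, where the r of Meg3 with Wdr76 was 0.798 and that of Cdkn1c with Dlgap4 was 0.818. For Dlk1, Peg3 and Grb10 it was 1 of 3, and for H19 and Rian 2 of 3. Among the 10 genes themselves, the closest pairs were Plagl1 with Grb10 (0.943), Dlk1 with Plagl1 (0.917) and Meg3 with Rian (0.901). H19 with Igf2 stood at 0.716 and Meg3 with Dlk1 at 0.0574, and the lowest value was that of H19 with Peg3 (-0.568).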

How the data were processed

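RNA-seq of mouse embryonic fibroblasts was measured in 10 libraries, 1 for each arm (OKS+DR, OKS+FoxO6) and day, grouped by their titles. The labels name a VAHTS kit and the study's methods a TruSeq kit. The authors used RSEM with bowtie2 on the GENCODE M13 transcriptome (mm10). Deposited by the authors were expected counts, not normalized, and the TPM of RSEM. The expected counts were rounded to whole numbers. R 4.3.3 with edgeR 4.0.16 (TMM, filterByExpr by arm, quasi-likelihood, Benjamini-Hochberg adjustment, threshold 0.05) fitted the arm with day as a factor, the day term with arm, and the interaction of arm with day as a linear trend. The common dispersion was 0.0336. Standard errors are the log2 fold change over the square root of F. The test was checked on simulated data.

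Differences on single days are in log2(TPM + 1), a scale that understates changes of low genes, and carry no test. They were computed with Python 3.11.15, numpy 2.4.6, pandas 2.3.3 and scipy 1.17.1, and figures with matplotlib 3.10.9. At 1208379 to 2225750 counts per library, low genes rest on few reads, and intervals cover counting error only. Reads without molecular identifiers are not independent molecules. The series table of 48476 genes was used, and 2124 further genes in the files per library held at most 0.312% of the counts. GENCODE M21 gave positions.

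The members and gene lists were chosen with earlier results of these data known. Named genes are the members, the genes past the threshold in the arm shift of each list, at most the 3 highest and 3 lowest by log2 fold change, and the genes most like each member over the 10 libraries. The alternatives were DESeq2 1.42.0, other size factors, no count filter, no day term, each day left out, a pseudocount of 0.1, and CPM.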

Additional observations from a re-analysis of the deposited data

Results flagged for a closer look

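For Igf2, 9 genes of the wider lists and the fibroblast marker Col1a2, the difference between OKS+FoxO6 and OKS+DR changed with the day in the edgeR model with an interaction of arm and day, as it did for 1.98% of all genes. Igf2 was the one among the 10 imprinted growth genes: its difference grew by 0.30 log2 units per day (edgeR adjusted p = 0.00313), with OKS+FoxO6 higher on 5 of 5 days, and it passed with each day left out. Among the 35 other imprinted genes tested there were 4: the trend was -0.43 per day for Peg10 (edgeR adjusted p = 0.00616), 0.27 for Ndn (edgeR adjusted p = 0.0135), 0.24 for Dcn (edgeR adjusted p = 0.0279) and 0.19 for Snrpn (edgeR adjusted p = 0.0382). That of Peg10 passed with each day left out, that of Ndn was lost without day 0 or day 7, that of Dcn was lost without day 0, day 1 or day 7, and that of Snrpn was lost in each of the 5 fits, with edgeR adjusted p of 0.0576 to 0.277. In the IGF axis, Igfbp2 had a trend of -0.64 per day (edgeR adjusted p = 0.00439) and Igfbp5 one of -0.44 (edgeR adjusted p = 0.00233), and both passed with each day left out. Igfbp7 went the other way, with 0.41 (edgeR adjusted p = 0.0135), and was lost without day 0 or day 7. Among the genes that set, keep or remove imprints, the trend of Tet2 (-0.32, edgeR adjusted p = 0.0471) was lost without day 0 or day 7. That of Hells (-0.20, edgeR adjusted p = 0.0475) was lost in each of the 5 fits. Col1a2 had a trend of 0.36 (edgeR adjusted p = 0.00212) and passed with each day left out. With DESeq2, the trends of Ndn (DESeq2 adjusted p = 0.0506), Dcn (0.0868), Snrpn (0.174), Tet2 (0.179) and Hells (0.276) were lost as well. Ndn, Igfbp5, Igfbp7, Tet2, Hells and Col1a2 lie outside the naming rule and are named after their values were seen.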

How the results depend on the processing

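The 4 shifts between the arms kept their direction under all 10 alternatives. Without the day term, 0 members were past the threshold in either direction (edgeR adjusted p of 0.662 for H19, 0.903 for Igf2, 0.117 for Meg3 and 0.0606 for Rian), where 1735 genes had an unadjusted p under 0.05 and 124 genes were called higher and 44 lower. Of the named genes of the wider lists, Uhrf1 and Igf1r kept their calls there. Nnat lost its call without the count filter. With each day left out, 1 to 2 members were called higher and 2 lower. The number of members with a trend was 1 in the main analysis, 2 with DESeq2 (Igf2 and Meg3), 3 without the count filter and 1 to 3 with each day left out. Shifts near 0 changed sign: Dlk1 was at 0.0846 and Mest at -0.0261 without the day term, and with each day left out they ranged from -0.189 to 0.0429 and from -0.0868 to 0.214. The trends of Cdkn1c (-0.0496 to 0.207 with each day left out) and Grb10 (-0.0918 to 0.0344) did so too, and the cause was not tested. Cdkn1c lost its change over days with DESeq2 (DESeq2 adjusted p = 0.055). Peg3 gained one with DESeq2 (DESeq2 adjusted p = 0.0267), and without the count filter all 10 members passed the day term, against 7. Among the fitted values of single genes under an alternative, 468 kept their direction and side of the threshold, 103 lost their call, 11 gained one and 7 changed sign. Of the differences on single days, none of those past 2-fold changed sign on the CPM scale, but smaller ones did: Meg3 at day 0 (0.02 in log2 CPM), Dlk1 at day 3 (-0.30) and day 5 (0.45), Plagl1 at day 5 (-0.10) and Mest at day 0, where both values were near 0.

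Over all genes, 761 were called higher and 783 lower between the arms, against 1148 and 1101 without the count filter (22663 genes tested), 385 and 320 without day 3 and 366 and 297 without day 5. The day term called 2152 genes, 3816 without the filter and 1056 without day 0. The trend called 133 upward and 84 downward, against 73 and 53 with DESeq2, 319 and 309 without the filter, 86 and 28 without day 0, 75 and 73 without day 1, 111 and 122 without day 5 and 44 and 36 without day 7. No paired analysis by replicate number was possible because there is 1 library per arm and day. The day served as the block. Depth limits Mirg, Rtl1, Cdkn1c and late Dlk1, which rest on few reads.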

Other observations

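Of the 35 other imprinted genes tested, 4 were higher and 6 lower at day 7 than at day 0 with the day term past the threshold, where 10% of all genes were higher and 9.57% lower. The higher ones were Begain (log2 fold change 4.59, edgeR adjusted p = 0.000105), Nnat (3.22, edgeR adjusted p = 8.67e-05), Ppp1r9a (2.38, edgeR adjusted p = 0.0002) and Cobl (0.80, edgeR adjusted p = 0.00534). The lower ones were Slc38a4, an amino acid transporter (-4.91, edgeR adjusted p = 0.000145), Rtl1 (-3.71, from few reads), Tnfrsf23 (-1.86), Osbpl5 (-1.66), Ndn (-1.63) and Gnas (-1.24). Begain, Ppp1r9a, Slc38a4, Osbpl5, Ndn and Gnas lie outside the naming rule and are named after their values were seen. Nnat and Cobl lost their calls without day 0 (edgeR adjusted p = 0.116 and 0.132), Rtl1 without day 1 or day 7, and Ndn without day 0 or day 5. In the IGF axis, 10 genes had a day term past the threshold, 2 of them higher at day 7 (Igfbp2 and Igfbp5) and the rest lower, although for Insr the difference of day 7 from day 0 was only -0.01. The call was lost for Insr without day 0, day 1 or day 3, for Irs1 without day 7, for Igfbp4 without day 0 and for Igfbp2 without day 3 or day 7.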
